A study of Mus musculus with 12 samples.

Results

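The B lineage genes described here are 9 genes that mark steps in the life of an antibody-producing cell, and they were chosen by name, as the rows of the deposited count table with the symbols *Cd79a*, *Cd79b*, *Ms4a1*, *Pax5*, *Vpreb1*, *Rag1*, *Jchain*, *Mzb1* and *Pou2af1*. All 9 were among the 18996 genes listed, and all 9 were among the 14765 genes that passed the filter on low counts. Bulk RNA sequencing covered 12 BALB/c mice of 5 to 7 weeks, 4 per group, with tissue taken 7 days after surgery. No operation mice gave soft tissue from beside the spine, SHAM mice lost paraspinal soft tissue but kept the vertebral lamina, and Laminectomy mice also had the lamina excised from T12 to L2, so that the tissue of both operated groups was labelled as soft and scar tissue. The groups of this series therefore differ in wounding and in tissue composition, and in bulk tissue fewer cells of a type and less RNA per cell cannot be told apart.

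B cells form in the bone marrow, where pro-B and pre-B cells cut and join immunoglobulin gene segments with the recombinase that *Rag1* encodes. The pre-B cell receptor holds the surrogate light chain protein encoded by *Vpreb1*. *Cd79a* and *Cd79b* encode the signalling chains of the B cell receptor, *Ms4a1* encodes the surface protein CD20, *Pax5* encodes the transcription factor that commits a cell to the lineage, and *Pou2af1* encodes a coactivator that works with octamer-binding factors. *Jchain* encodes the chain that joins immunoglobulin A and M into polymers, and *Mzb1* encodes an endoplasmic reticulum protein of marginal zone B cells and plasma cells that aids immunoglobulin assembly. Immunoglobulin constant region genes were not analysed here, since none of the 12 symbols on that list matched a row.

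The table gives the members the identifiers 12518 (*Cd79a*), 15985 (*Cd79b*), 12482 (*Ms4a1*), 18507 (*Pax5*), 22362 (*Vpreb1*), 19373 (*Rag1*), 16069 (*Jchain*), 69816 (*Mzb1*) and 18985 (*Pou2af1*). Positions are those of GENCODE on GRCm38, the build named in the submitters' processing notes. *Cd79a* lies on chromosome 7 from 24897381 to 24902197 on the plus strand, *Pou2af1* on chromosome 9 from 51213708 to 51240080 on the plus strand, *Cd79b* on chromosome 11 from 106311341 to 106314762 on the minus strand and *Ms4a1* on chromosome 19 from 11249675 to 11266241 on the minus strand. *Pax5* lies on chromosome 4 from 44524757 to 44710487, *Rag1* on chromosome 2 from 101638282 to 101649501, *Vpreb1* on chromosome 16 from 16868403 to 16870843 and *Jchain* on chromosome 5 from 88519809 to 88527891, all on the minus strand. Exons of *Vpreb1* share 108 bases with *Top3b* on the opposite strand, and exons of *Rag1* share 80 bases with B230118H07Rik on the same strand. Exons of *Pax5* share 125 and 636 bases with the opposite-strand transcripts Gm12462 and 5730488B01Rik, which the table does not list. Exons of *Cd79a*, *Cd79b*, *Ms4a1*, *Jchain* and *Pou2af1* shared no base with another annotated gene. Libraries were stranded, and the study's methods give featureCounts at its default settings, under which strand is ignored and reads of opposite-strand genes that overlap cannot be told apart. Those settings give whole numbers, whereas 10.2% of the deposited values are fractional, so the settings behind this table are uncertain.

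*Vpreb1* is the member whose identity is least certain, because *Vpreb2* (chromosome 16, 17980428 to 17981273) is a near copy. Their coding sequences, both 429 bases long, were identical at 420 positions (97.9%), and 97 of the 330 windows of 100 bases, the read length, held no difference. The window with the most differences held 5, shown here in capitals, with bases 279 to 378 of each coding sequence from GENCODE transcripts (Vpreb1 chr16:16868647-16868746, minus strand, and Vpreb2 chr16:17980930-17981029, plus strand).
Vpreb1: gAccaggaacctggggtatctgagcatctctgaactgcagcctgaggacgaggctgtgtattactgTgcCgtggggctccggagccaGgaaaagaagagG
Vpreb2: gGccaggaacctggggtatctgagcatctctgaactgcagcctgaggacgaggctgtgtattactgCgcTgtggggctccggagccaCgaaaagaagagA
The deposited values of both genes added to a whole number (within 1e-06) in all 12 mice, while *Vpreb1* alone was fractional in 2 of them. No operation replicate 2 had 39.76 counts for *Vpreb1* and 6.24 for *Vpreb2*, which add to 46, and Laminectomy replicate 1 had 12.9 and 1.1, which add to 14. The deposited values of both genes therefore cannot be taken as separate in these libraries, and those of *Vpreb1* are uncertain to that extent.

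Promoter sequences are shown for 4 members whose levels rose and fell together across the mice (*Cd79a*, *Pax5*, *Rag1* and *Pou2af1*). RefSeq promoter entries of GRCm38.p6 matched 6 of the 9 members, these 4 with *Vpreb1* and *Jchain*. The sequences are of the reference strain and not of BALB/c, each is read 5′ to 3′ on its gene's strand, and each holds the bases before the RefSeq start that lie outside every GENCODE exon. Capitals mark matches, on either strand, to an octamer core (TGCAAAT), to the E-box sequences CAGGTG and CAGCTG and to the core GAGGAA of ETS-family factors. The windows are chr7:24897247-24897380 for Cd79a, chr4:44710695-44710944 for Pax5, chr2:101649533-101649782 for Rag1 and chr9:51213440-51213689 for Pou2af1.
Cd79a: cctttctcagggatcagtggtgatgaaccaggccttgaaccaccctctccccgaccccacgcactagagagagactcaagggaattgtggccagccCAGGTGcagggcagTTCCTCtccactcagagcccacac
Pax5: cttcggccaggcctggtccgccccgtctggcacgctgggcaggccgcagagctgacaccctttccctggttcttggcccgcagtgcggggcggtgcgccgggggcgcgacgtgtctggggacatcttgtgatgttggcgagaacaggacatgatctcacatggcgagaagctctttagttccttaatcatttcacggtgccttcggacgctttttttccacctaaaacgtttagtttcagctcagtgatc
Rag1: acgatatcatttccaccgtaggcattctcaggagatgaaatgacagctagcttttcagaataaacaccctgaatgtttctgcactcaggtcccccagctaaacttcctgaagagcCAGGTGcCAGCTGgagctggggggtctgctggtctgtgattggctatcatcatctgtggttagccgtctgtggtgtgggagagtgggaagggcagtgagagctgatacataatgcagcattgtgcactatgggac
Pou2af1: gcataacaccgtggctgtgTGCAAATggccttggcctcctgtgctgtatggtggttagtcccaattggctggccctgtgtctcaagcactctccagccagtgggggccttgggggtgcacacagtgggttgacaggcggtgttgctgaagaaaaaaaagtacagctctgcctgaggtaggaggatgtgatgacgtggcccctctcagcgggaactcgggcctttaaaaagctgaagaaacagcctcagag
The search covered all 250 bases before the RefSeq start, exons included, for the 6 matched members and for 32851 promoters in all. The octamer core was found for *Pou2af1*, 231 bases before its start, for none of the other 5, and in 3.56% of all promoters. CAGGTG was found for *Cd79a*, *Rag1* and *Vpreb1*, against 17.2% of all promoters, and CAGCTG for *Rag1*, against 13.0%. GAGGAA was found for *Cd79a* and *Vpreb1*, against 23.3%. Both matches of *Vpreb1* lay in bases that GENCODE annotates as exon, 88 and 81 bases before the RefSeq start. The 250 bases of *Pax5* and of *Jchain* held none of these letters, which says only that they were not in these windows.

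Libraries held 16802988 to 18077863 counts, and levels are given as CPM, the counts divided by the TMM-scaled library size and multiplied by 1e+06, where a count of 0 allows up to 0.154 to 0.210 CPM per mouse (3 counts, counting error only). Defining genes matched the labelled tissue: the summed CPM of 8 skeletal muscle genes was 97729 to 136593 in No operation, 2347 to 9428 in SHAM and 3182 to 13346 in Laminectomy mice, and that of 8 fibroblast genes was 8518 to 27802, 58500 to 79018 and 54591 to 67762. Among unoperated mice, replicates 2 and 3 stood apart, since 10 marrow granulocyte genes summed to 3075 and 1112 CPM in them and to 24.9 and 22.8 CPM in replicates 1 and 4. SHAM replicate 1 had the lowest muscle sum (2347 CPM) and the highest macrophage sum (7720 CPM, from 7 genes) of the 12 mice. Results that rest on No operation replicate 2 are given with and without it below.

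**Figure D1:**
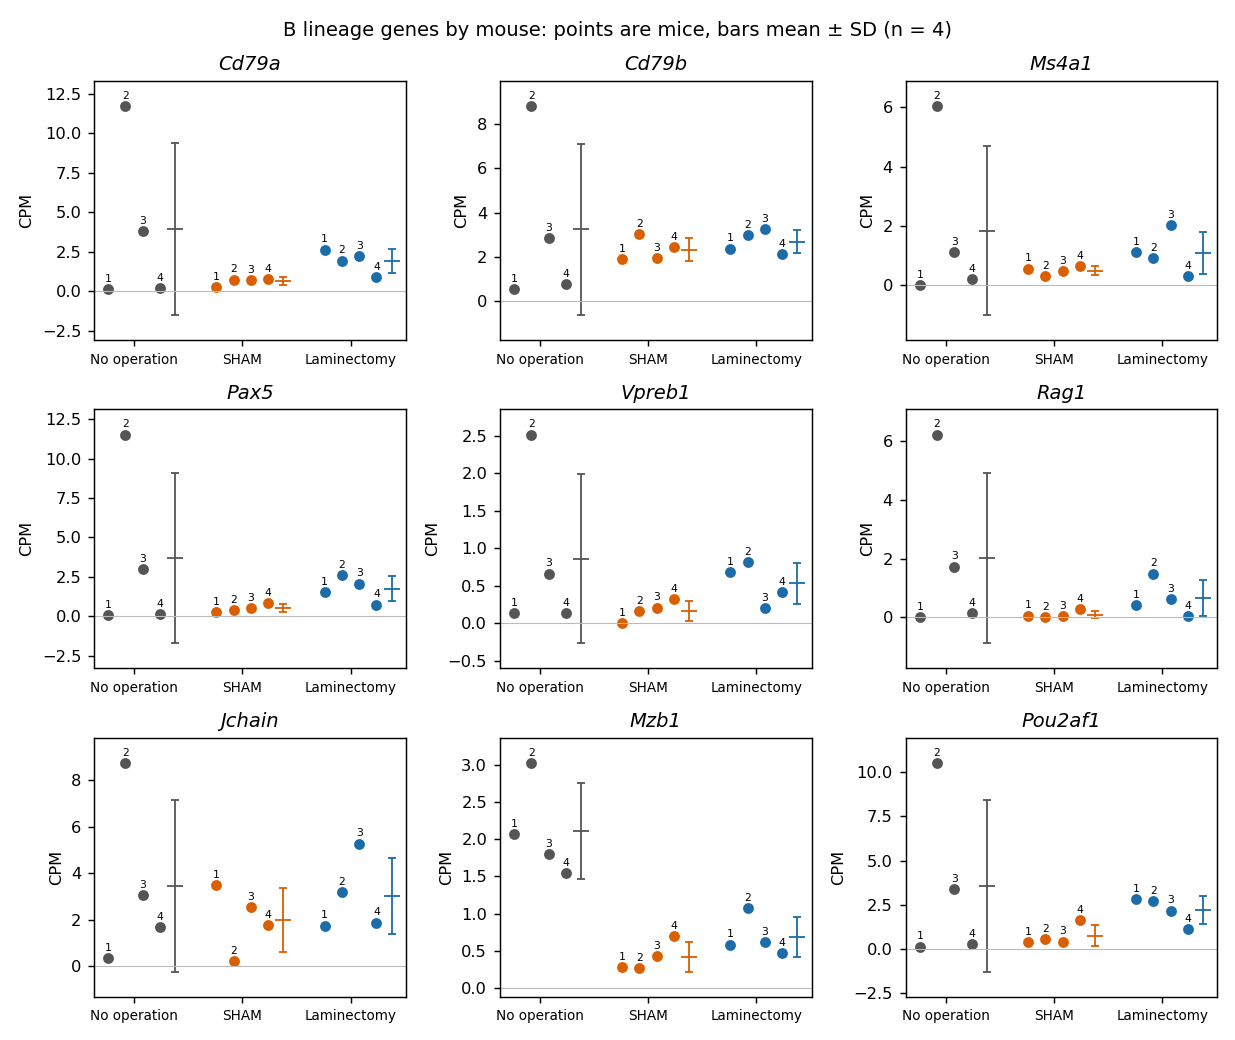
Level of each B lineage gene (CPM, linear axis with its own scale per panel) in the 12 mice, by group, with replicate numbers above the points and the mean ± SD (n = 4) beside them. No operation replicate 2 was the highest mouse for all 9 genes, and *Mzb1* was the gene whose 4 unoperated mice (1.54 to 3.02 CPM) all lay above the 8 operated mice (0.267 to 1.08 CPM).

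The 9 genes were expressed at low levels, and their sum was dominated by a single unoperated mouse. The summed level was 3.44, 69.1, 21.4 and 5.12 CPM in No operation replicates 1 to 4, 7.24, 5.72, 7.36 and 9.45 CPM in SHAM replicates 1 to 4, and 13.9, 17.8, 18.5 and 8.03 CPM in Laminectomy replicates 1 to 4. No operation replicate 2 thus held 69.7% of its group's sum and replicate 3 held 21.6%, while the other unoperated mice lay below all 8 operated mice. Replicate 2 was the highest of the 4 unoperated mice for 9 of 9 members, and replicate 3 came next for 8 of them, an order seen in 12.1% of all genes tested. Per kilobase of the RefSeq-linked transcript, the median level in SHAM mice was highest for *Cd79b* (1.85 CPM per kilobase) and *Jchain* (1.54), then *Cd79a* (0.511), *Mzb1* (0.389), *Vpreb1* (0.243), *Pou2af1* (0.199), *Ms4a1* (0.169), *Pax5* (0.0564) and *Rag1* (0.00825). *Cd79b* and *Jchain* also led in Laminectomy mice, at medians of 2.24 and 1.82 CPM per kilobase, whereas *Mzb1* led in No operation mice at 2.14, ahead of *Jchain* at 1.70 and *Cd79b* at 1.52. In all 3 groups the ranges of neighbours in this order overlapped.

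The receptor and surface genes were highest in No operation replicate 2, lowest in No operation replicates 1 and 4, and between these in operated mice. *Cd79a* was at 0.138, 11.7, 3.80 and 0.210 CPM in No operation, 0.281, 0.749, 0.741 and 0.800 CPM in SHAM, and 2.65, 1.95, 2.23 and 0.886 CPM in Laminectomy mice. The Laminectomy values all lay above the SHAM values, and both operated groups lay inside the range of unoperated mice. Between SHAM and No operation its log2 fold change was −2.61 (standard error, SE, 1.05, adjusted p = 0.0471 from the edgeR quasi-likelihood fit, Benjamini-Hochberg), and without No operation replicate 2 it was −1.10 and was not called. *Cd79b*, the partner chain, was at 0.551, 8.81, 2.86 and 0.771 CPM in No operation, 1.91, 3.05, 1.96 and 2.45 CPM in SHAM, and 2.38, 2.98, 3.26 and 2.14 CPM in Laminectomy mice. It was the steadiest member among operated mice, with a coefficient of variation of 22.7% in SHAM and 19.3% in Laminectomy against 119% in No operation mice. Its log2 fold change between SHAM and No operation was −0.48 (SE 0.668, adjusted p = 0.554, edgeR), and 0.74 without No operation replicate 2. *Ms4a1* was at 0, 6.04, 1.13 and 0.210 CPM in No operation, 0.562, 0.321, 0.476 and 0.640 CPM in SHAM, and 1.11, 0.924, 2.02 and 0.313 CPM in Laminectomy mice. Its groups overlapped in every comparison, and its log2 fold change between SHAM and No operation was −1.88 (SE 1.07, adjusted p = 0.145, edgeR), with 0.14 when No operation replicate 2 was left out.

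Both transcription genes were again highest in No operation replicate 2 and next highest in replicate 3. *Pax5* was at 0.0689, 11.5, 3.00 and 0.140 CPM in No operation, 0.281, 0.374, 0.529 and 0.854 CPM in SHAM, and 1.53, 2.62, 2.07 and 0.730 CPM in Laminectomy mice, so that 3 of 4 Laminectomy mice lay above every SHAM mouse. Its log2 fold change between SHAM and No operation was −2.84 (SE 1.13, adjusted p = 0.0468, edgeR), and −1.06 and not called without No operation replicate 2. *Pou2af1* was at 0.138, 10.5, 3.40 and 0.280 CPM in No operation, 0.393, 0.588, 0.423 and 1.65 CPM in SHAM, and 2.80, 2.72, 2.17 and 1.15 CPM in Laminectomy mice. SHAM replicate 4 stood above the other SHAM mice, and it lay above Laminectomy replicate 4. The log2 fold change of *Pou2af1* between SHAM and No operation was −2.22 (SE 1.02, adjusted p = 0.0780, edgeR), and −0.73 without No operation replicate 2.

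Precursor genes were highest in No operation replicate 2 and lay at or near the counting floor in SHAM mice, at no more than 0.320 CPM. *Rag1* was at 0, 6.23, 1.73 and 0.140 CPM in No operation, 0.0562, 0, 0.0529 and 0.267 CPM in SHAM, and 0.423, 1.49, 0.621 and 0.0521 CPM in Laminectomy mice. Its SHAM values rest on 7 counts over 4 mice, against 127 in No operation mice, 99 of them in replicate 2, and 50 in Laminectomy mice. It had the largest fitted difference of the 9 genes between SHAM and No operation, at −4.33 on the log2 scale (SE 1.47, adjusted p = 0.0232, edgeR), which was −2.65 and not called without No operation replicate 2. *Vpreb1* was at 0.138, 2.52, 0.666 and 0.140 CPM in No operation, 0, 0.160, 0.212 and 0.320 CPM in SHAM, and 0.688, 0.821, 0.207 and 0.417 CPM in Laminectomy mice. These rest on 53.76, 13 and 40.9 counts per group, and the log2 fold change between SHAM and No operation was −2.28 (SE 0.971, adjusted p = 0.0593, edgeR), and −0.84 without No operation replicate 2. *Top3b*, whose exons overlap those of *Vpreb1* on the other strand, was at 34.2 to 39.4 CPM in all 12 mice.

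The antibody secretion genes parted from each other. *Jchain* was at 0.344, 8.75, 3.06 and 1.68 CPM in No operation, 3.48, 0.214, 2.54 and 1.76 CPM in SHAM, and 1.75, 3.18, 5.28 and 1.88 CPM in Laminectomy mice. Its groups overlapped throughout, and SHAM replicate 2, with 4 counts, was the lowest of the 12 mice. The log2 fold change of *Jchain* was −0.80 between SHAM and No operation (SE 0.845, adjusted p = 0.430, edgeR) and −0.20 between Laminectomy and No operation (SE 0.832, adjusted p = 0.852), and without No operation replicate 2 these were 0.23 and 0.83. *Mzb1* was at 2.07, 3.02, 1.80 and 1.54 CPM in No operation, 0.281, 0.267, 0.423 and 0.694 CPM in SHAM, and 0.582, 1.08, 0.621 and 0.469 CPM in Laminectomy mice. Every unoperated mouse lay above every operated mouse. *Mzb1* fell between No operation and SHAM by 2.32 on the log2 scale (SE 0.396, adjusted p = 0.000401, edgeR) and between No operation and Laminectomy by 1.61 (SE 0.378, adjusted p = 0.00345), and the log2 fold changes were −2.09 and −1.38, both called, without No operation replicate 2. Its mean level was 2.11 ± 0.646 CPM in No operation, 0.416 ± 0.198 in SHAM and 0.688 ± 0.268 in Laminectomy mice (SD, n = 4).

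*Mzb1* lies on chromosome 18 from 35647267 to 35649367 on the minus strand, close to other genes of the same strand. Its exons share 695 bases with the same-strand GENCODE gene SPATA24 (35647268 to 35662163), which has no row of its own in the table, and *Prob1* lies upstream on the same strand (35650351 to 35655238), with 984 bases between its end and the start of *Mzb1*. *Spata24*, a separate GENCODE entry that the table does list (35656689 to 35662186), shares 420 exon bases with SPATA24 and none with *Mzb1*, from which it lies 7322 bases away. *Prob1*, named here after its values were seen, was at 97.8, 52.6, 63.7 and 73.2 CPM in No operation, 2.36, 15.9, 17.0 and 18.4 CPM in SHAM, and 11.0, 26.8, 22.0 and 24.7 CPM in Laminectomy mice. It fell with the skeletal muscle genes, and like *Mzb1* it was higher in all 4 unoperated mice than in all 8 operated mice. Its log2 fold change was −2.42 between SHAM and No operation (SE 0.499, adjusted p = 0.00142, edgeR) and −1.76 between Laminectomy and No operation (SE 0.486, adjusted p = 0.00847). *Spata24*, also named after its values were seen, went the other way, at 1.24, 2.58, 1.93 and 2.73 CPM in No operation, 2.36, 2.25, 2.75 and 3.63 CPM in SHAM, and 3.65, 3.39, 3.16 and 3.44 CPM in Laminectomy mice. The fitted log2 fold change of *Spata24* was 0.37 between SHAM and No operation (SE 0.261, adjusted p = 0.235, edgeR) and 0.68, called higher, between Laminectomy and No operation (SE 0.261, adjusted p = 0.0401). The part of *Prob1* and of the overlapping SPATA24 in the counts of *Mzb1* was not tested. *Mzb1* also differed from the other members in its pattern over all 12 mice: its Pearson correlation with the other 8 on log2 CPM ranged from 0.01 to 0.61 with a median of 0.33, whereas among the 7 members other than *Mzb1* and *Jchain* it ranged from 0.68 to 0.98 with a median of 0.88. Over the 8 operated mice only, the medians were 0.74 and 0.76. Pairs of *Jchain* with those 7 had a median of 0.65 over all 12 mice, and of 0.28 (−0.18 to 0.62) over the 8 operated mice, where *Jchain* and not *Mzb1* stood apart. These correlations describe 12 libraries that all genes share and carry no test.

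**Figure D2:**
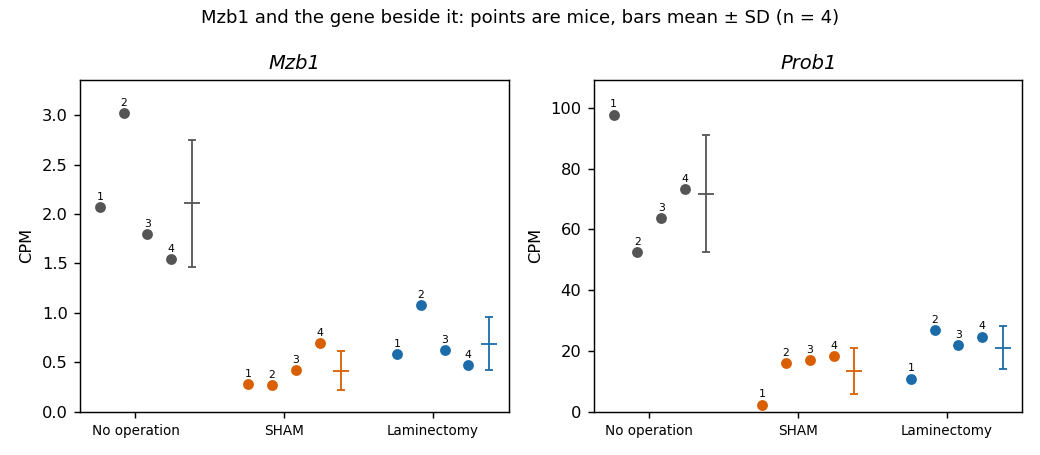
Levels (CPM, linear axes from 0) of *Mzb1* and of *Prob1*, the gene beside it on the same strand, in the 12 mice with replicate numbers and the mean ± SD (n = 4). In both panels the 4 unoperated mice lie above all 8 operated mice, and *Prob1* reaches 97.8 CPM where *Mzb1* reaches 3.02 CPM.

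Between SHAM and No operation, which asks what a wound without bone excision does, 4 of the 9 members were called, with an adjusted p below 0.05 and a log2 change of over 0.5 in size (*Cd79a*, *Pax5*, *Rag1* and *Mzb1*), all 4 lower in SHAM mice. Of all genes tested, 50.8% were called in that comparison and 25.1% were called lower, beside 44.4% of the members. With only these 2 groups in the fit, 5 members passed the count filter (*Cd79a*, *Cd79b*, *Jchain*, *Mzb1* and *Pou2af1*). *Pax5* and *Rag1* were thus tested only with the Laminectomy mice in the fit. Of the 5, only *Mzb1* was called, where 7163 genes in all were called. The log2 fold change was below 0 for all 9, from −4.33 to −0.48 with a median of −2.28, where the median of all genes was −0.0020. Without adjustment, 5 members had p below 0.05, and 65.7% of all genes did. *Mzb1* was the only member whose 2 groups did not overlap, as against 27.8% of all genes with SHAM below No operation throughout. The exact two-sided permutation test on log2 CPM gave p = 0.0286 for *Mzb1*, the smallest that 4 mice against 4 allow (0.257 after adjustment over 27 tests), and 0.257 to 0.857 for the other 8.

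Between Laminectomy and No operation, *Mzb1* was the only member called (1 of 9, lower). Background shares were 48.6% of genes called and 24.4% called lower. All 9 log2 fold changes were below 0, from −1.64 for *Rag1* to −0.20 for *Jchain*, with a median of −0.76. A single member, *Mzb1*, had an unadjusted p below 0.05, against 64.0% of all genes, and was the only one whose groups did not overlap, against 29.0% of genes lower in Laminectomy mice throughout. The exact permutation p was 0.0286 for *Mzb1* and 0.629 to 1 for the others. For *Cd79a* the 95% interval of the log2 fold change ran from −3.16 to 1.07 and for *Pax5* from −3.35 to 1.18, so that both held changes in either direction. Both comparisons share the 4 unoperated mice.

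Laminectomy against SHAM compares wounds with and without excision of the lamina. The median log2 fold change was 3.31 for the 8 bone genes, 2.20 for 11 erythroid genes and 1.99 for the 10 marrow granulocyte genes, none of them called. Bone genes summed to 626 to 1725 CPM in Laminectomy mice and 27.4 to 146 CPM in SHAM mice, while the erythroid and granulocyte sums of both groups overlapped. By edgeR no member was called, and no gene of all 14765 was (0%), while DESeq2 called 601 genes and none of the members. No member had an unadjusted p below 0.05 in edgeR, where 16.0% of all genes did. All 9 log2 fold changes were above 0, namely *Rag1* 2.69, *Pax5* 1.75, *Vpreb1* 1.57, *Cd79a* 1.57, *Pou2af1* 1.52, *Ms4a1* 1.12, *Mzb1* 0.71, *Jchain* 0.60 and *Cd79b* 0.20, with a median of 1.52 and 0.0037 over all genes. Every interval held 0, that of *Cd79a* running from −0.69 to 3.84 (adjusted p = 0.478) and that of *Cd79b* from −1.26 to 1.66 (adjusted p = 0.904). *Cd79a* was the only member whose Laminectomy mice all lay above its SHAM mice (1.93 ± 0.751 against 0.643 ± 0.243 CPM, SD, n = 4), a separation found for 5.04% of all genes. The exact permutation p of *Cd79a* was 0.0286, or 0.257 after adjustment over 27 tests, and that of *Pax5* and of *Pou2af1* was 0.0571 each.

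**Figure D3:**
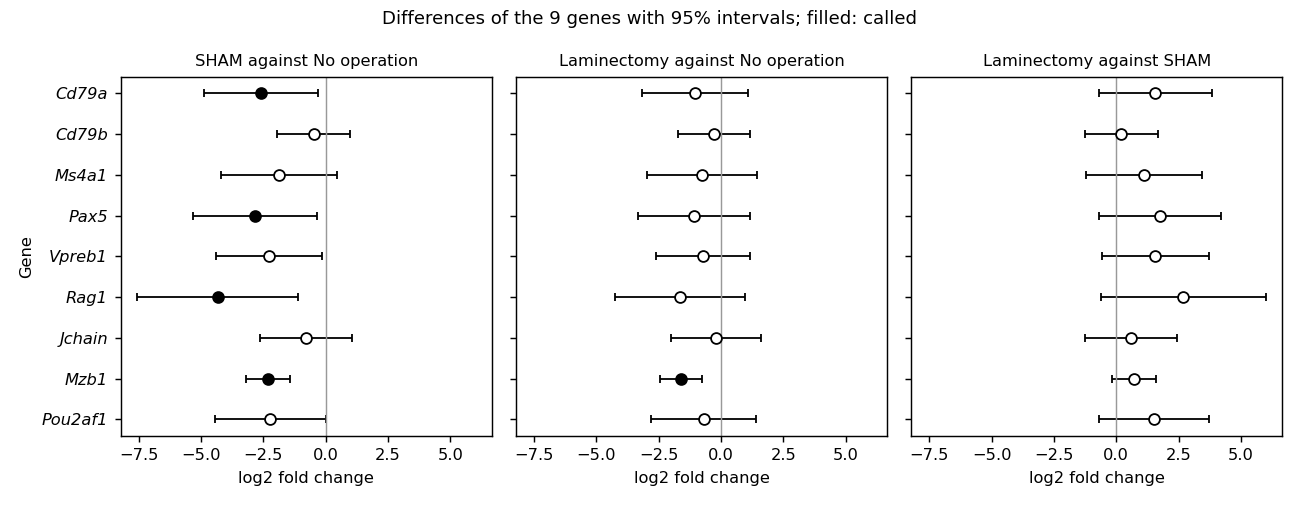
Log2 fold change of the 9 B lineage genes in the 3 comparisons, with 95% intervals from the edgeR fit of all 12 mice, where filled points were called. In Laminectomy against SHAM all 9 points lie above 0 with intervals that hold 0, and *Mzb1* is the only filled point in Laminectomy against No operation.

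Leaving out 1 mouse changed the calls between SHAM and No operation, and the direction of most members between Laminectomy and No operation. Leaving out No operation replicate 2 left *Mzb1* as the only member called between SHAM and No operation, and turned the sign for 3 members there (*Cd79b*, *Ms4a1* and *Jchain*). In Laminectomy against No operation it turned the sign for 8 of 9 members, all but *Mzb1*, with none of the 8 called. Leaving out any single SHAM mouse or No operation replicate 3, or any Laminectomy mouse from the shared fit, also lowered the count between SHAM and No operation, to 1 or 2, while leaving out No operation replicate 1 raised it to 7 and replicate 4 to 6. The size of the differences moved less than the calls in these fits: without a SHAM mouse or No operation replicate 3, the log2 fold change of *Cd79a* was −2.73 to −2.38 and that of *Pax5* −3.20 to −2.66. Without a Laminectomy mouse they were −2.61 and −2.84 as before, with adjusted p (edgeR) of 0.0548 to 0.0607 and 0.0541 to 0.0603. *Mzb1* was called in both comparisons under all 12 omissions, with log2 fold changes from −2.67 to −2.09 and from −1.90 to −1.38. With No operation replicates 2 and 3 both left out, an alternative chosen after seeing the data that leaves 2 unoperated mice, 5 members were called higher in Laminectomy mice (*Cd79a* 3.43, *Cd79b* 2.03, *Ms4a1* 3.31, *Pax5* 3.98 and *Pou2af1* 3.37 on the log2 scale) and 3 were called higher in SHAM mice (*Cd79a* 1.85, *Cd79b* 1.82 and *Pax5* 2.22), with *Mzb1* still called lower in both. In that fit 7175 genes in all were called, in either direction, between Laminectomy and No operation and 7344 between SHAM and No operation.

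**Figure D4:**
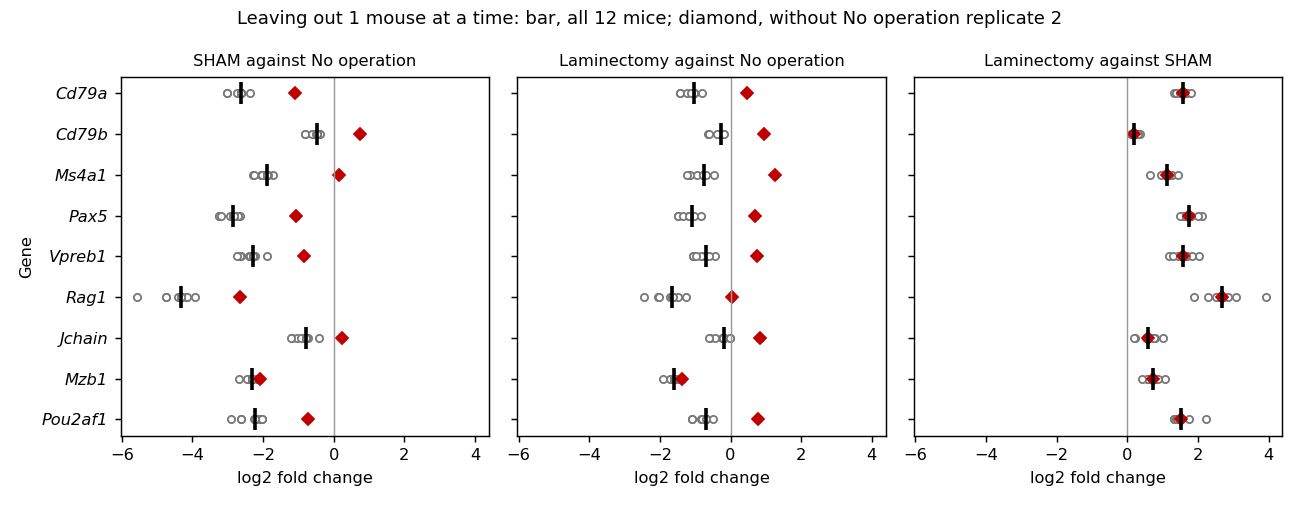
Log2 fold change of each member with all 12 mice (bar) and with 1 mouse left out at a time (points), where the diamond leaves out No operation replicate 2. In Laminectomy against No operation the diamond lies above 0 for all members but *Mzb1*, while in Laminectomy against SHAM every point lies above 0.

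Like the members, the summed marrow granulocyte, bone and erythroid genes were highest in No operation replicate 2 and next in replicate 3 among unoperated mice, while in each operated group their order over the 4 mice differed from that of the members. Summed over the 10 marrow granulocyte genes, levels were 24.9, 3075, 1112 and 22.8 CPM in No operation, 6.63, 67.7, 168 and 633 CPM in SHAM, and 276, 1410, 2132 and 327 CPM in Laminectomy mice. Bone genes (8 of 8 listed) summed to 9.37, 544, 157 and 7.99 CPM in No operation, 27.4, 140, 64.3 and 146 CPM in SHAM, and 1725, 1638, 702 and 626 CPM in Laminectomy mice. Erythroid genes (11 of 12 listed) summed to 1505, 5272, 3615 and 772 CPM, 643, 985, 1172 and 1135 CPM, and 6963, 2620, 4567 and 1098 CPM in the same order. No operation replicate 2 was highest and replicate 3 next among unoperated mice for 10 of 10 granulocyte, 11 of 11 erythroid and 8 of 8 bone genes, 0 of 7 macrophage and 0 of 8 muscle genes. *Mpo*, which encodes a granule enzyme of marrow precursors, had 0.896, 356, 116 and 2.10 CPM in the 4 unoperated mice, and the osteoblast product *Bglap* had 0, 122, 28.2 and 0.771 CPM. The members' sum per 100 CPM of granulocyte genes was 13.9, 2.25, 1.93 and 22.5 in No operation replicates 1 to 4. It was 0.867 to 5.04 in Laminectomy mice and 1.49 to 109 in SHAM mice. The highest ratios, 109, 22.5 and 13.9, came from mice whose granulocyte sum was at most 24.9 CPM. In No operation replicate 1, *Mzb1* alone held 2.07 of the members' 3.44 CPM. *Jchain* and *Cd79b* held 3.48 and 1.91 of the 7.24 CPM in SHAM replicate 1. The part of marrow or bone tissue in the members' levels was not tested.

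**Figure D5:**
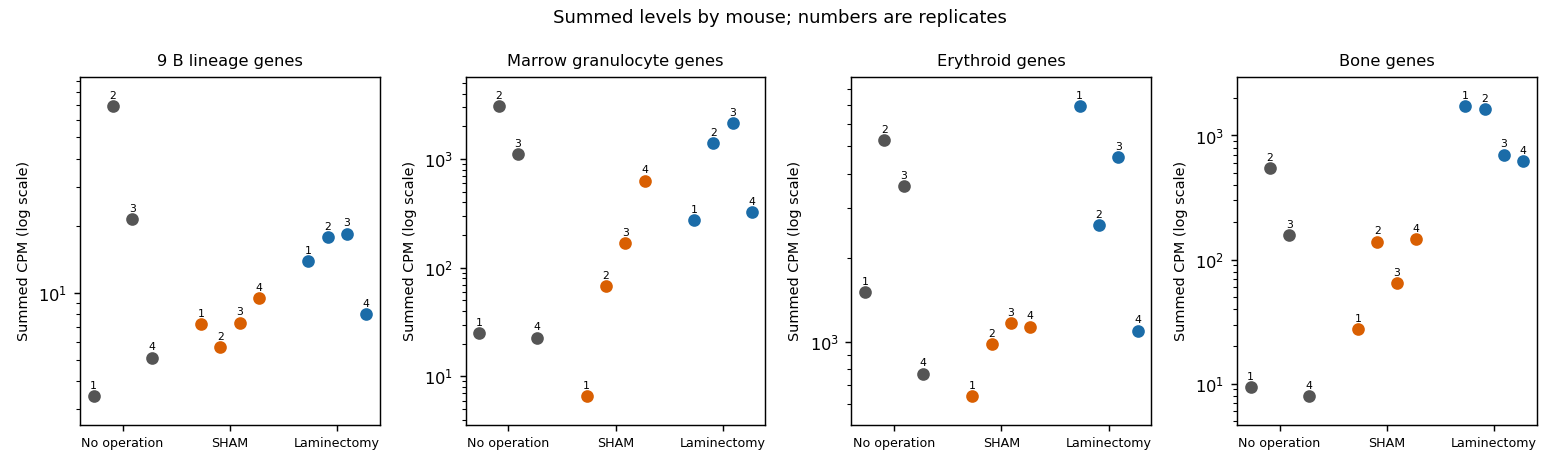
Summed CPM (log axes) of the 9 B lineage genes and of marrow granulocyte, erythroid and bone genes in the 12 mice, with replicate numbers. No operation replicates 2 and 3 lie above replicates 1 and 4 in all 4 panels, and the bone genes of Laminectomy mice (626 to 1725 CPM) lie above those of every other mouse.

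Other genes of the lineage, 72 by name of which 60 were listed and 54 tested, included both genes that rose and genes that fell in operated mice. Between SHAM and No operation 22 were called higher and 8 lower, and between Laminectomy and No operation 21 and 8, where 25.7% and 24.2% of all genes were called higher and 25.1% and 24.4% lower. Their median log2 fold changes were 0.58 and 0.10. Between Laminectomy and SHAM none of the 54 was called by edgeR and 1 by DESeq2. Macrophages use several of the genes that rose, among them *Btk*, *Cd37* and *Irf8*, and 7 of 7 macrophage markers rose in both comparisons and summed to 597 to 1645 CPM in No operation, 4243 to 7720 CPM in SHAM and 3206 to 5696 CPM in Laminectomy mice. The part of macrophages in these increases was not tested.

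Of the 16 surface and signalling genes tested, 7 rose and 1 fell in each comparison with No operation, where 25.7% and 24.2% of all genes rose and 25.1% and 24.4% fell. The largest increases in SHAM mice were those of *Cd180*, a Toll-like receptor homologue (log2 fold change 2.59), *Cd22*, an inhibitory sialic acid receptor (2.50), *Cd72*, an inhibitory coreceptor (2.47), and *Tnfrsf13b*, the receptor TACI (1.95), and in Laminectomy mice these were 2.66, 2.10, 2.71 and 1.61. *Fcer2a*, the low-affinity IgE receptor, was the only one that fell, by 1.40 and 1.00 on the log2 scale.

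Among the 12 transcription factors, 3 rose and 3 fell in each comparison, shares close to those of all genes (25.7% higher and 25.1% lower in SHAM, 24.2% and 24.4% in Laminectomy mice). *Pou2f2*, which encodes an octamer-binding partner of the *Pou2af1* product, rose by 2.19 in SHAM and 1.37 in Laminectomy mice on the log2 scale, and *Irf8* rose by 1.69 and 1.16. *Irf4*, needed for plasma cells and also expressed in other tissues, fell by 1.59 and 3.11, and *Foxo1* fell by 1.26 and 1.12. *Bcl6* fell by 1.15 and 1.21. Of 6 precursor genes tested, *Il7r*, the interleukin 7 receptor, was the only one called, higher by 2.67 and 2.37. T cells also use *Il7r*, and of 9 T and NK cell markers tested, 6 rose in SHAM mice, while 4 rose and 1 fell in Laminectomy mice. All 12 of these markers summed to 3.92 to 17.4 CPM in No operation, 24.5 to 32.8 CPM in SHAM and 20.9 to 31.2 CPM in Laminectomy mice, and their part in the increase of *Il7r* was not tested. *Dntt*, the polymerase that adds bases at recombination joints, was not called, with unoperated mice at 0, 6.17, 2.26 and 0.140 CPM.

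Plasma cell and secretion genes were mostly higher in operated mice: 8 of 10 tested were called higher in SHAM and 9 of 10 in Laminectomy mice, with none lower, where 25.7% and 24.2% of all genes were called higher. Secreting cells of other kinds also use several of these genes, and in each comparison 6 of 8 fibroblast markers (1 fell), whose sums are given above, and 7 of 7 macrophage markers rose as well. The part of these cells in the increases was not tested. *Fkbp11* (2.51 and 2.59 on the log2 scale), the surface proteoglycan *Sdc1* (2.33 and 2.28), *Slamf7* (2.24 and 2.12) and the transcriptional repressor *Prdm1* (2.13 and 2.74) had the largest increases. The plasma cell receptor *Tnfrsf17* was below the count filter, at 0 to 0.393 CPM in the 12 mice. Of 10 genes for factors that support B cells, 3 rose and 4 fell in SHAM mice and 1 rose and 4 fell in Laminectomy mice. Of all genes, 25.7% and 24.2% were called higher and 25.1% and 24.4% lower. The chemokine *Ccl21a* fell by 2.04 and 1.71 and *Kitl*, stem cell factor, by 1.11 and 1.14, while *Tnfsf13*, the cytokine APRIL, rose by 1.43 and 1.06. *Ltb* rose by 1.68 in SHAM mice and was at 1.06 without a call in Laminectomy mice (adjusted p = 0.160), and *Flt3l* fell by 0.61 and 0.91.

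Genes whose pattern over the 12 mice was most like that of each role group were named by Pearson's correlation on log2 CPM with the group's mean standardized level. For the receptor and surface group these included *Siglecg* (0.96), *Spib* (0.96), *Dntt* (0.95) and *Samd11* (0.95), of which the first 3 stand on the B lineage lists. For the transcription group they included *Apol11b* (0.97), *Dntt* (0.96), *Myb* (0.96) and *Gfi1* (0.94). For the precursor group they included *Pigq* (0.95), *Ranbp3l* (0.92), *Alox12* (0.92) and *Chst3* (0.91), and for the secretion group they were *Slc6a4* (0.92), *Akap5* (0.91), *Kbtbd7* (0.91), *Cpox* (0.90) and *Atp2a3* (0.90). All rest on the same 12 libraries, in which No operation replicates 2 and 3 carry much of the spread.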

How the data were processed

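Samples were grouped by their GEO labels, and all 4 mice of each group were used, although the study's methods give 3 mice per group. The series' text says that these were picked for RNA integrity and sequencing quality, so each group here may hold a mouse the authors set aside, and which 3 were selected is not given in the sources used here. The authors prepared stranded polyA libraries with paired reads of 100 bases, and the submitters' processing notes name STAR 2.6.1b, featureCounts 2.0.1, DESeq2 1.30.1 and GRCm38. The deposited values are expected counts, not normalized, since 10.2% of them are not whole, and they were rounded before any fit, which changed none by more than 0.5. The design written for this work had assumed whole-number counts.

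Genes were filtered with filterByExpr, scaled with TMM and fitted across all 14765 genes in 1 quasi-likelihood model of 12 mice with edgeR (version 4.0.16, run under R 4.3.3). Calls needed an adjusted p (Benjamini-Hochberg) below 0.05 together with a log2 change larger than 0.5 in either direction. For each member an exact permutation test, two-sided, was run on log2 CPM (prior count 2), adjusted over 27 tests. Standard errors are the absolute log2 fold change divided by the square root of F. The series' text calls the 4 samples of a group biological replicates. Floors of 3 counts cover counting error only, as reads carried no molecular identifiers.

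The 9 members and the marker and companion lists were chosen with earlier results of these data known. Genes outside the members were named by a rule: up to 4 called genes per list and comparison with the largest absolute log2 fold change, defining genes whose level stands beside a member's result, and the 5 genes most like each role group with a mean of at least 1 CPM. A companion gene that this rule covers is not reported here. *Prob1*, *Spata24*, *Top3b*, *Fcer2a*, *Btk*, *Cd37* and *Tnfrsf17* fall outside it and were picked with their values in view. On counts drawn for 14681 genes with known changes between SHAM and No operation, edgeR recovered 83.0% of changes of 2 and 56.0% of changes of 1 on the log2 scale. DESeq2 1.42.0 and the other alternatives are given with the closing observations.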

Additional observations from a re-analysis of the deposited data

Results flagged for a closer look

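Dixon's test at the 95% level was run on 30 groups of 4 mice, of the 9 members and their sum, and marked 2 of them, where chance alone marks about 1 in 20. *Cd79a* in SHAM replicate 1 was at 0.281 CPM (5 counts), below the other SHAM mice at 0.741 to 0.800 CPM. *Pou2af1* in SHAM replicate 4 was at 1.65 CPM (31 counts), above the other SHAM mice at 0.393 to 0.588 CPM. The high values of No operation replicate 2 were not marked, as their gap to the next unoperated mouse, as a share of the range, stayed below the critical value.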

How the results depend on the processing

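The 9 members' counts in Laminectomy against SHAM (0 called) were the same under every alternative that tested them. In Laminectomy against No operation (1 called) they were the same under all of these but the omission of No operation replicates 2 and 3. Between SHAM and No operation the count of 4 became 2 with library totals only (*Cd79a* −2.41 and *Pax5* −2.65, not called) or with no filter on low counts (−2.61 and −2.83, adjusted p = 0.0535 and 0.0532), 1 with only the 2 groups compared, where 5 members passed the filter, and 1 with a replicate block, where only *Mzb1* was called, and it ran from 1 to 7 when each mouse was left out. It was 6 with DESeq2. Over all genes, 7502 were called in that comparison in the main fit, 7672 with DESeq2 and 6966 to 7642 when each mouse was left out. Without No operation replicates 2 and 3, chosen after seeing the data, 6 members were called between Laminectomy and No operation, 5 higher and 1 lower. In that comparison 7175 genes in all were called. DESeq2 called 1 companion gene between Laminectomy and SHAM where edgeR called 0. The filter of at least 10 counts in every mouse left no member to test.

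Replicate numbers were not taken to pair the mice, since the correlation of same-numbered mice ran from −0.23 to 0.20 between SHAM and No operation and from −0.13 to 0.33 between Laminectomy and SHAM. Between Laminectomy and No operation it was positive for all 4 numbers (0.069 to 0.35), and 3 of 4 mice correlated best with their own number, a hint from the data and not from the design. With the replicate block, *Cd79b* turned to 0.042 between SHAM and No operation and 0.25 between Laminectomy and No operation. With library totals only, *Jchain* turned to 0.075 in the latter. Over the omissions of 1 mouse, log2 fold changes between SHAM and No operation ran from −0.83 to 0.74 for *Cd79b*, −2.29 to 0.14 for *Ms4a1* and −1.20 to 0.23 for *Jchain*. Between Laminectomy and No operation they ran from −1.44 to 0.47 for *Cd79a*, −0.63 to 0.94 for *Cd79b*, −1.24 to 1.26 for *Ms4a1*, −1.49 to 0.69 for *Pax5*, −1.06 to 0.74 for *Vpreb1*, −2.45 to 0.041 for *Rag1*, −0.61 to 0.83 for *Jchain* and −1.10 to 0.79 for *Pou2af1*. Each highest value was reached without No operation replicate 2.

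Without No operation replicates 2 and 3, signs turned for 8 members in both comparisons. Between SHAM and No operation the log2 fold changes became 1.85 for *Cd79a*, 1.82 for *Cd79b*, 2.19 for *Ms4a1*, 2.22 for *Pax5*, 0.32 for *Vpreb1*, 0.41 for *Rag1*, 0.99 for *Jchain* and 1.84 for *Pou2af1*. Between Laminectomy and No operation they became 3.43 for *Cd79a*, 2.03 for *Cd79b*, 3.31 for *Ms4a1*, 3.98 for *Pax5*, 1.90 for *Vpreb1*, 3.11 for *Rag1*, 1.58 for *Jchain* and 3.37 for *Pou2af1*. *Mzb1* kept its direction and its call in both comparisons with No operation under every alternative that tested it. The cause of these turns was not tested beyond the mice left out.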
